A study of Mus musculus with 18 samples.

Results

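The tumour suppressor gene *Trp53* and 9 genes that its product, the transcription factor p53, is known to activate were followed in mouse embryonic stem cells (mESCs). The targets were *Mdm2*, *Cdkn1a*, *Ccng1*, *Zmat3*, *Phlda3*, *Btg2*, *Trp53inp1*, *Bbc3* and *Pmaip1*. They were taken by gene symbol, and all 10 were found among the 24369 genes of the deposited expression table. All 10 passed the filter on low counts in both experiments. The fewest estimated counts in any library were 55, for *Pmaip1* at day 0, and the most were 7101, for *Ccng1*.

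p53 is a stress-activated transcription factor that halts division or triggers cell death when DNA is damaged or growth is disturbed. Much of its control is at the protein level. Mdm2, a ubiquitin ligase that p53 itself induces, marks p53 for degradation, so that the messenger RNA of *Trp53* and the output of its targets can move apart. In mESCs p53 is abundant, and it is known to act on pluripotency genes as well as on these targets.

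All 18 libraries came from the E14 mESC line carrying 2 insertions. At 1 allele of *Rex1* (*Zfp42*, a naive pluripotency gene) lay a destabilised GFP with a blasticidin resistance gene. At *Rosa26* lay Cas9, driven by the human EF1α promoter. In the labels this parental genotype is Rex1GFPd2-Cas9. The time course followed these cells at days 0, 1, 2 and 3 of differentiation, with 3 libraries per day, and its library kit is not given in the sources used here. By the study's methods, differentiation was induced in a defined medium that lacked LIF and 2 inhibitors. The methods do not tie this to the time course by name, and its day 0 medium is not given in the sources used here. The other 6 libraries, 2 per genotype, were made from sorted GFP+ cells of the parental line (wild-type) and of its Nprl2-/- and Tsc2-/- derivatives (*Nprl2* KO and *Tsc2* KO), which lost a critical exon on both alleles. Nprl2, a subunit of the GATOR1 complex, and Tsc2 both restrain the growth kinase mTORC1. The lines were expanded from picked clones on mitomycin C-treated fibroblast feeders in serum and LIF, and the labels do not say whether the 2 libraries of a genotype are separate clones or cultures. P-values therefore measure only the spread between these libraries, which may be technical.

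Total estimated counts lay between 12503005 and 15305054 per library in the time course and between 8610357 and 13780861 in GFP+ cells. *Nprl2* itself measured 16.5 ± 0.635 TPM (a length-scaled share of transcripts, SD, n = 2) in wild-type and 8.37 ± 0.399 in *Nprl2* KO, and *Tsc2* measured 44.96 ± 0.0319 in wild-type and 19.5 ± 1.08 in *Tsc2* KO, so the targeted transcript was lower in the line named for its loss, without being absent. The 7 pluripotency markers summed to between 4694 and 4906 TPM at day 0 and to between 1848 and 2211 TPM at day 3, and *Zfp42* fell from 775 to 12.8 TPM. The 10 feeder fibroblast markers summed to 12.9 to 22.0 TPM at day 0, 54.0 to 61.1 TPM at day 3 and 44.8 to 162 TPM in GFP+ cells, and up to 3 of them had a mean under 0.1 TPM in a group. The 6 primitive endoderm markers stayed under 12 TPM in sum in every library, and the 5 neural markers lay between 19.7 and 218 TPM. *Nprl2* KO library 1 stood apart in its fragment length, with 227.9 bases between transcript length and effective length against 169.6 to 183.9 in the other GFP+ libraries.

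p53 binds a pair of 10-base elements that follow the p53 response element consensus, separated by 0 to 13 bases, and this sequence was looked for in the RefSeq promoters of GRCm38.p6. Each window ran from 250 bases before to 50 bases after an annotated start, and since the consensus reads the same on both strands, a single reading covers both. Of the 10 genes, 7 had a window (10 windows in all), and *Zmat3*, *Trp53inp1* and *Pmaip1* had none. The C and the G that the consensus fixes were required in every element, so mismatches could fall only at the other bases. Under that condition, pairs with at most 1 mismatch over 20 bases were found for *Cdkn1a* and *Ccng1*, against 0.627% of all 32851 windows. The 250 bases before the start are shown for both, 5′ to 3′ on the strand of the gene, with every 10-base element of such a pair in capitals.
Cdkn1a, upstream start, chr17:29090729-29090978, plus strand: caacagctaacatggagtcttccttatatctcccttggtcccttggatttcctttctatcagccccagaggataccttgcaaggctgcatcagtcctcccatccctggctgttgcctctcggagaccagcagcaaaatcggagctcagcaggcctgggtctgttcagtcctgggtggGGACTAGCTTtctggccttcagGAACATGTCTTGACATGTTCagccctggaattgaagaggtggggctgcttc
Ccng1, chr11:40755287-40755536, minus strand: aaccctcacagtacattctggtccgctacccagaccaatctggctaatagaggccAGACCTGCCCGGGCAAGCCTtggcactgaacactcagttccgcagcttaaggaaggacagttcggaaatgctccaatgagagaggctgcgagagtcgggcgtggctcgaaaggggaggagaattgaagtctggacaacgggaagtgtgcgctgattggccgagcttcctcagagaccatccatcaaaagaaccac

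The *Cdkn1a* window held 2 overlapping pairs, one without a mismatch and with a spacer of 12 bases, between 73 and 42 bases before the start, and one with 1 mismatch and no spacer, between 51 and 32 bases before it. A pair without mismatch was present in 0.0731% of all windows. This start lies 2790 bases upstream of the other annotated *Cdkn1a* start, whose own window had at least 5 mismatches. The transcript that begins at the upstream start held a mean of 1.35% to 6.52% of *Cdkn1a* TPM over the 7 groups, so kallisto assigned nearly all of the signal to the downstream start. In *Ccng1* the pair lay between 195 and 176 bases before the start. The best pairs of *Trp53* and *Bbc3* had 3 mismatches, as 15.6% of windows did or bettered, and those of *Mdm2* and *Btg2* had 4 and that of *Phlda3* 5. That share is per window, and *Bbc3* had several windows. Another of them also had a best pair with 3 mismatches (chr7:16310156-16310177), which is not shown. The *Trp53* pair and the other *Bbc3* pair are shown in the same way to set beside those above.
Trp53, chr11:69580284-69580303, plus strand: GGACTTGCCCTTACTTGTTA
Bbc3, chr7:16309486-16309505, plus strand: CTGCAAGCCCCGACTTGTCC
These matches are descriptions of the sequence, and no binding was measured. Bases outside the windows were not read, so a poor match here does not show that a gene lacks a p53 site.

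The first question was how p53 and its targets stood as the cells left the naive state. TPM is scaled by transcript length, so levels of different genes can be compared within a library. *Trp53* had the highest level of the 10 genes at days 0, 1 and 3, and *Ccng1* the next highest. At day 2 *Ccng1* (275 ± 15.6 TPM, SD, n = 3) and *Trp53* (260 ± 13.1 TPM) overlapped. *Pmaip1* was the lowest at day 0, with 3.40 ± 0.318 TPM, and had reached the range of *Mdm2* and *Phlda3* by day 2. Between these ends, *Phlda3*, *Trp53inp1*, *Mdm2* and *Cdkn1a* could not be ordered at day 0, since each overlapped its neighbour between 68.9 and 101.8 TPM.

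**Figure D1:**
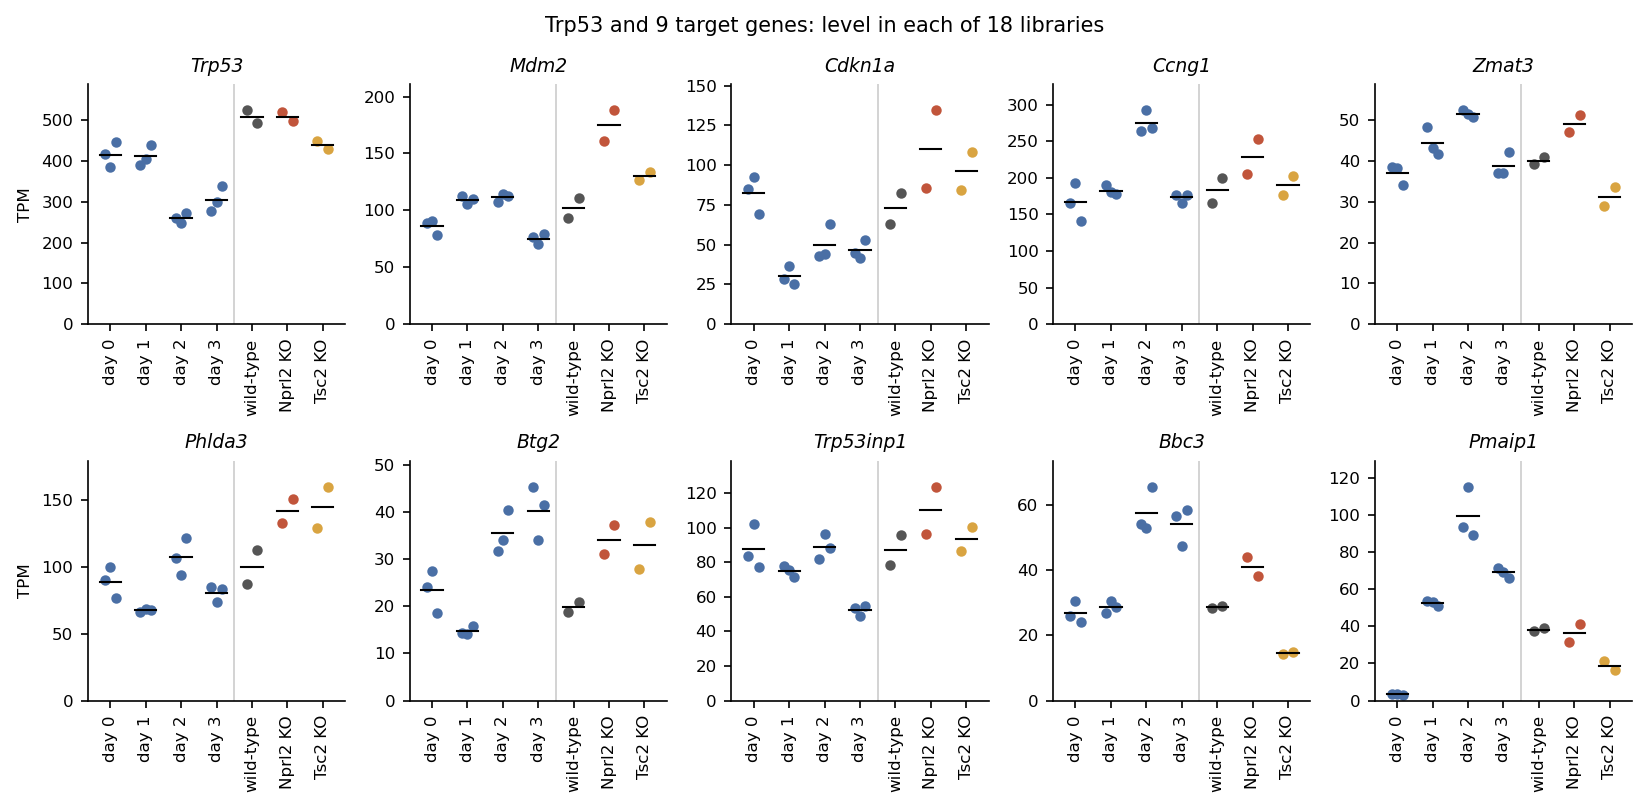
Level (TPM, linear axes from 0) of *Trp53* and 9 target genes in each library. Points are libraries, bars are group means, blue points are the 3 libraries of each day, and the other colours are the 2 GFP+ libraries of each genotype. *Pmaip1* rises from 3.40 TPM at day 0 to 99.5 TPM at day 2, while *Trp53* falls between day 1 and day 2.

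*Trp53* (chr11:69580348-69591873, GRCm38) measured 416.5, 385.1 and 446.8 TPM in the libraries of day 0, 391.5, 404.5 and 438.5 at day 1, 261.2, 246.9 and 273.0 at day 2 and 278.0, 299.3 and 338.0 at day 3. Days 0 and 1 overlapped, and every library of days 2 and 3 lay under all of them. The log2 fold change from day 1 to day 2 was -0.77 (SE 0.07, quasi-likelihood test of edgeR, Benjamini-Hochberg adjusted p over all genes = 1.78e-08). From day 2 to day 3 it was 0.18 (SE 0.07, edgeR adjusted p = 0.0492), a call made in 8 of 10 alternative analyses and lost when any of 8 of the 12 libraries was left out, with adjusted p up to 0.235. The 2 annotated *Trp53* transcripts share their start, and the minor one held a mean of 12.8% of *Trp53* TPM at day 0 (11.1% to 14.0%) and 22.1% at day 2 (19.5% to 23.5%). These shares are kallisto's division of reads between transcripts that overlap over most of their length.

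Over the 4 days the 10 genes moved in different directions. From day 0 to day 1 the test called 7 of 10 genes, 4 higher and 3 lower, where it called 60.9% of all genes, 30.1% higher and 30.8% lower. From day 1 to day 2 it again called 7, 6 higher and 1 lower, against 62.1% of all genes (32.5% and 29.6%). From day 2 to day 3 it called 7, 1 higher and 6 lower, against 31.5% (15.9% and 15.6%). Day 3 against day 0 gave 8 calls, 3 higher and 5 lower, against 70.9% (35% and 35.9%). The share called was therefore near that of all genes in each comparison but day 3 against day 2. The median log2 fold change of the 10 genes was 0.11, 0.52 and -0.45 over the 3 steps, and that of all genes lay between -0.01 and 0.02. The first and the second step share the day 1 libraries, and the second and the third the day 2 libraries. Levels are per unit of RNA, and in these bulk samples fewer cells that express a gene and less RNA per cell cannot be told apart.

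**Figure D2:**
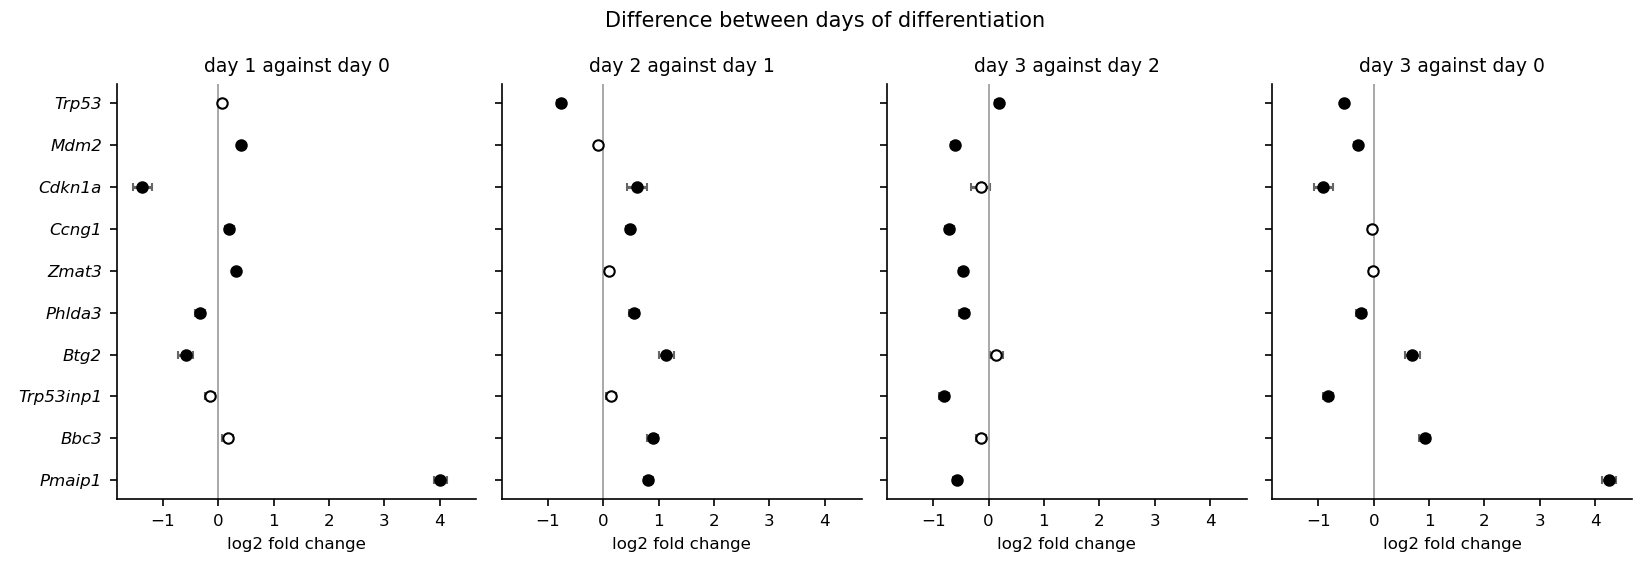
Log2 fold change of each gene between days, from counts, with bars of 1 SE from the edgeR fit of 12 libraries. Filled points passed an adjusted p of 0.05, and open points did not. The 4.01 of *Pmaip1* from day 0 to day 1 lies far outside the other genes, and 6 of 10 points are filled below 0 between day 2 and day 3.

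Of the genes that feed back on p53, *Mdm2* (chr10:117688875-117710758) measured 89.0, 90.9 and 78.1 TPM at day 0, 112.7, 105.3 and 109.8 at day 1, 107.5, 114.3 and 112.7 at day 2 and 76.6, 70.0 and 78.7 at day 3. Days 1 and 2 overlapped, and both lay above every library of days 0 and 3. *Mdm2* rose at day 1 (log2 fold change 0.41, SE 0.06, edgeR adjusted p = 1.15e-05) and fell at day 3 against day 2 (-0.61, SE 0.06, edgeR adjusted p = 1.54e-06). *Ccng1* (chr11:40748552-40755309), cyclin G1, which recruits a phosphatase to Mdm2, measured 263.9, 292.8 and 268.3 TPM at day 2 and between 141.5 and 193.7 TPM in every library of the other days. It rose from day 1 to day 2 (0.48, SE 0.08, edgeR adjusted p = 8.47e-05) and fell from day 2 to day 3 (-0.71, SE 0.08, edgeR adjusted p = 1.23e-05), so that day 3 and day 0 overlapped. A smaller rise from day 0 to day 1 (0.20, SE 0.08, edgeR adjusted p = 0.0456) was called in 3 of 10 alternative analyses and in 3 of 12 fits without a library.

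Among the genes of growth arrest, *Cdkn1a* (chr17:29090979-29100722), which encodes the cyclin-dependent kinase inhibitor p21, measured 85.0, 92.6 and 68.9 TPM at day 0, 28.6, 36.5 and 25.3 at day 1, 42.8, 43.9 and 62.8 at day 2 and 44.8, 41.8 and 52.8 at day 3. Every library of day 0 lay above all later libraries, and days 2 and 3 overlapped. *Cdkn1a* fell by 1.37 on the log2 scale at day 1 (SE 0.17, edgeR adjusted p = 3.08e-05) and rose by 0.61 from day 1 to day 2 (SE 0.18, edgeR adjusted p = 0.0109). *Btg2* (chr1:134074865-134079155), an antiproliferative gene that acts on mRNA deadenylation, had its lowest values at day 1, 14.4, 14.2 and 15.9 TPM, against 24.1, 27.5 and 18.5 at day 0. Its libraries of days 2 and 3 lay between 31.7 and 45.3 TPM, above every library of days 0 and 1. *Btg2* fell at day 1 (-0.59, SE 0.14, edgeR adjusted p = 0.00165) and rose from day 1 to day 2 (1.14, SE 0.13, edgeR adjusted p = 3.49e-06), and day 3 was above day 0 by 0.70 (SE 0.13, edgeR adjusted p = 0.000178), where *Cdkn1a* was below it by 0.91.

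*Pmaip1*, which encodes the BH3-only protein Noxa, an activator of mitochondrial apoptosis, had the widest range. Its libraries measured 3.46, 3.69 and 3.06 TPM at day 0, 53.5, 52.95 and 51.1 at day 1, 93.7, 115.4 and 89.5 at day 2 and 71.4, 69.6 and 66.4 at day 3. No 2 days overlapped. The log2 fold change from day 0 to day 1 was 4.01 (SE 0.12, 16.1-fold, edgeR adjusted p = 2.2e-15), and the steps to day 2 and to day 3 were 0.81 (SE 0.08, edgeR adjusted p = 1.44e-07) and -0.57 (SE 0.08, edgeR adjusted p = 6.61e-05).

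*Bbc3* (chr7:16308398-16318334), which encodes Puma, the other BH3-only protein of the list, moved a day later. It measured 25.9, 30.5 and 24.2 TPM at day 0 and 27.1, 30.6 and 28.8 at day 1, then 54.4, 53.04 and 65.7 at day 2 and 56.6, 47.5 and 58.6 at day 3. Days 0 and 1 overlapped, as did days 2 and 3, and the later pair lay above the earlier pair in every library. The rise from day 1 to day 2 was 0.89 on the log2 scale (SE 0.10, edgeR adjusted p = 2.59e-07), and the change from day 0 to day 1 was 0.17 (SE 0.10, edgeR adjusted p = 0.162).

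*Zmat3* (chr3:32334792-32365665), an RNA-binding protein gene, lay between 34.2 and 52.5 TPM in all 12 libraries, with a rise at day 1 (0.33, edgeR adjusted p = 0.000302) and a fall at day 3 against day 2 (-0.46, edgeR adjusted p = 7.68e-05). *Phlda3* (chr1:135766085-135769134), which encodes a pleckstrin homology protein that opposes Akt at the membrane, fell to 66.0, 68.0 and 67.7 TPM at day 1 and rose to 106.4, 93.7 and 121.0 at day 2 (0.56, SE 0.09, edgeR adjusted p = 3.73e-05). Its day 3 values, 84.7, 73.5 and 83.4 TPM, overlapped those of day 0, and the call between these days (-0.23, edgeR adjusted p = 0.0326) was made in 3 of 10 alternatives and in 8 of 12 fits without a library, with adjusted p up to 0.245. *Trp53inp1* (chr4:11156441-11174379), linked to autophagy and to p53 phosphorylation, measured 53.7, 48.8 and 54.7 TPM at day 3, below every library of the other days, which lay between 71.7 and 101.8. It fell by 0.80 on the log2 scale at day 3 against day 2 (SE 0.09, edgeR adjusted p = 5.24e-06). Of its 2 annotated transcripts, one held 47.6% to 58.0% of the gene's TPM at day 0 and 68.5% to 75.3% at day 3.

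The feeder fibroblast markers also moved over the days, from 12.9 to 22.0 TPM in sum at day 0 to between 49.1 and 52.5 at day 2, but they did not move together. From day 0 to day 2 the mean of *Thy1* went from 4.38 to 21.8 TPM and that of *Mmp2* from 4.44 to 19.4 TPM, while *Col1a1* went from 4.2 to 0.942 TPM and *Col3a1* from 0.852 to 0.193 TPM. Their part in the day 2 values of the 10 genes was not tested.

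The second comparison asked how loss of each mTORC1 restraint, within cells sorted as GFP+, moved the same genes. In *Nprl2* KO the test called 4 of 10 genes, all higher (*Mdm2*, *Zmat3*, *Btg2* and *Bbc3*), where it called 6.43% of all genes, 2.78% higher and 3.66% lower. The median log2 fold change of the 10 was 0.46, against 0.00 over all genes tested, and 9 of 10 were above 0. In *Tsc2* KO the test called 7 of 10, 3 higher (*Mdm2*, *Phlda3* and *Btg2*) and 4 lower (*Trp53*, *Zmat3*, *Bbc3* and *Pmaip1*), against 29.1% of all genes (14.9% higher and 14.2% lower). The median log2 value there was 0.04. Both comparisons use the same 2 wild-type libraries. The counts rest on single libraries: without wild-type library 1 they were 1 (*Mdm2*) and 3 (*Zmat3*, *Bbc3* and *Pmaip1*), without *Nprl2* KO library 2 the count in *Nprl2* KO was 2, and without *Tsc2* KO library 2 that in *Tsc2* KO was 4.

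**Figure D3:**
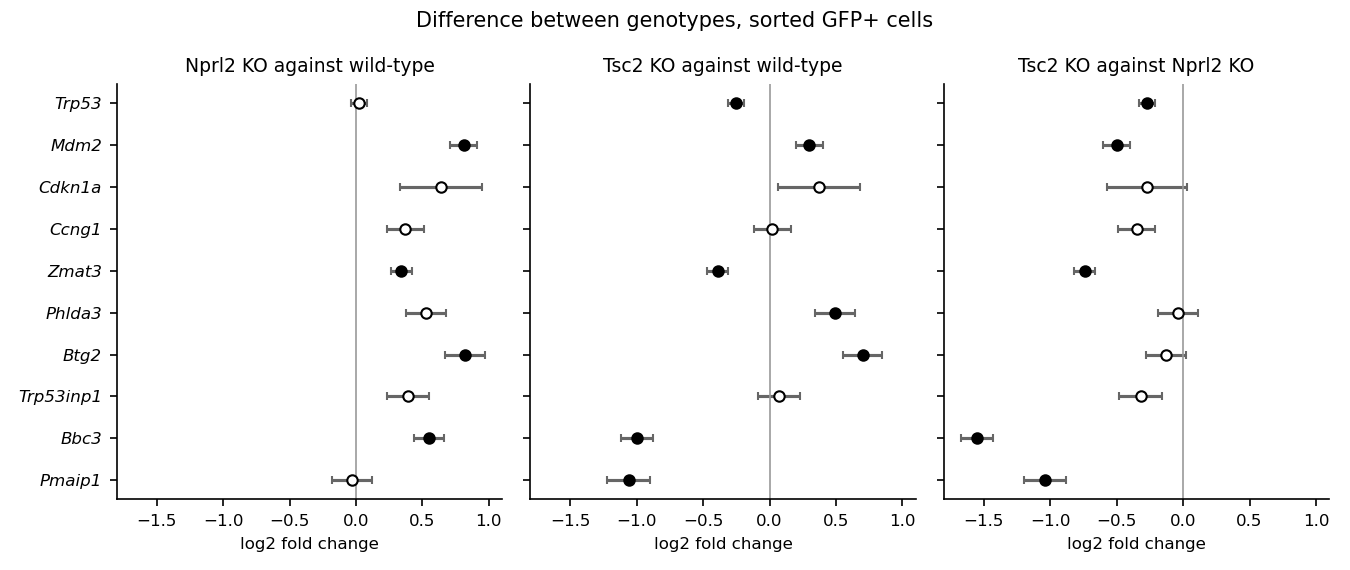
Log2 fold change of each gene between genotypes in sorted GFP+ cells, from counts, with bars of 1 SE from the edgeR fit of 6 libraries. Filled points passed an adjusted p of 0.05, and open points did not. In *Nprl2* KO all filled points lie above 0, and in *Tsc2* KO *Bbc3* and *Pmaip1* lie near -1.

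*Trp53* measured 525.2 and 493.7 TPM in wild-type, 520.1 and 498.3 without *Nprl2* and 449.5 and 430.2 without *Tsc2*. Wild-type and *Nprl2* KO overlapped, and both *Tsc2* KO libraries lay below them. The log2 fold change was -0.25 in *Tsc2* KO (SE 0.06, edgeR adjusted p = 0.00968), which was not called without wild-type library 1 (adjusted p = 0.0829) or without *Tsc2* KO library 2 (adjusted p = 0.108), and 0.02 in *Nprl2* KO (SE 0.06, edgeR adjusted p = 0.877).

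*Mdm2* had the lowest adjusted p of the 10 genes in *Nprl2* KO. It measured 93.6 and 111.2 TPM in wild-type, 161.3 and 188.0 without *Nprl2* and 126.3 and 133.6 without *Tsc2*, and the genotypes did not overlap. The log2 fold change in *Nprl2* KO was 0.81 (SE 0.10, edgeR adjusted p = 0.00149), and it was called in all 10 alternatives and without any of the 6 libraries. In *Tsc2* KO it was 0.30 (SE 0.10, edgeR adjusted p = 0.0433), a call that was lost without wild-type library 1 (0.16, adjusted p = 0.301) and without either *Tsc2* KO library. *Ccng1* measured 165.2 and 200.6 TPM in wild-type, 205.1 and 253.4 without *Nprl2* and 177.3 and 202.8 without *Tsc2*, and neither KO passed the test (edgeR adjusted p = 0.192 and 0.93).

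*Cdkn1a* measured 63.2 and 82.2 TPM in wild-type, 85.8 and 134.5 without *Nprl2* and 84.1 and 108.4 without *Tsc2*. Every KO library was above both wild-type libraries in TPM, but the lower KO libraries were close to the higher wild-type one. Neither log2 fold change passed the test (0.64, SE 0.31, edgeR adjusted p = 0.35, and 0.37, SE 0.31, edgeR adjusted p = 0.454). Without a filter on low counts both were called (edgeR adjusted p = 2e-09 and 0.000953). *Btg2* measured 18.7 and 21.0 TPM in wild-type, 31.0 and 37.1 without *Nprl2* and 27.8 and 37.9 without *Tsc2*. Both KOs were above wild-type and overlapped each other, with log2 fold changes of 0.82 (SE 0.15, edgeR adjusted p = 0.014) and 0.70 (SE 0.15, edgeR adjusted p = 0.00824). Without wild-type library 1 neither passed (adjusted p = 0.102 and 0.0724), and without *Nprl2* KO library 2 the first did not (adjusted p = 0.0841).

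*Bbc3* measured 28.4 and 29.1 TPM in wild-type, 44.1 and 38.3 without *Nprl2* and 14.4 and 14.95 without *Tsc2*. The genotypes did not overlap, and wild-type lay between the KOs. The log2 fold change was 0.55 in *Nprl2* KO (SE 0.11, edgeR adjusted p = 0.0122) and -1.0 in *Tsc2* KO (SE 0.12, edgeR adjusted p = 7.75e-05). The *Nprl2* KO call was lost without wild-type library 1 (adjusted p = 0.0792) or *Nprl2* KO library 1 (adjusted p = 0.0956). The *Tsc2* KO call held in all 10 alternatives and without any of the 6 libraries.

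*Pmaip1* measured 37.4 and 39.2 TPM in wild-type, 31.6 and 41.5 without *Nprl2* and 21.1 and 16.5 without *Tsc2*. Wild-type lay within the range of *Nprl2* KO, and *Tsc2* KO was below both. Its log2 fold change was -1.06 in *Tsc2* KO (SE 0.16, edgeR adjusted p = 0.00102) and -0.03 in *Nprl2* KO (SE 0.15, edgeR adjusted p = 0.953). The wild-type GFP+ level stands beside 3.40 TPM at day 0 and 52.5 TPM at day 1 of the time course, and the 2 experiments were not tested against each other.

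*Zmat3* also moved in opposite directions. It measured 39.3 and 41.0 TPM in wild-type, 47.0 and 51.4 without *Nprl2* and 28.9 and 33.7 without *Tsc2*, and no 2 genotypes overlapped. It rose by 0.34 in *Nprl2* KO (SE 0.08, edgeR adjusted p = 0.0213) and fell by 0.39 in *Tsc2* KO (SE 0.08, edgeR adjusted p = 0.00291). The first call was made in 7 of 10 alternatives and in 3 of 6 fits without a library, the adjusted p reaching 0.154 without wild-type library 1, 0.0522 without wild-type library 2 and 0.142 without *Nprl2* KO library 2, and the second in all of them. *Phlda3* measured 87.2 and 112.6 TPM in wild-type, 132.6 and 150.4 without *Nprl2* and 128.7 and 159.6 without *Tsc2*. Both KOs lay above wild-type by similar amounts, of which 0.49 in *Tsc2* KO passed (SE 0.15, edgeR adjusted p = 0.0492, lost in 4 of 6 fits without a library, with adjusted p up to 0.199) and 0.53 in *Nprl2* KO did not (SE 0.15, edgeR adjusted p = 0.0981). The latter was called by DESeq2 (adjusted p = 0.0092), without a filter on low counts (edgeR adjusted p = 1.32e-06) and without wild-type library 2 (edgeR adjusted p = 0.0199). *Trp53inp1* lay between 78.2 and 123.6 TPM in all 6 libraries and passed in neither KO.

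Set directly against each other, *Tsc2* KO was lower than *Nprl2* KO for 5 of 10 genes and higher for none, where 34.2% of all genes were called (17.5% higher and 16.6% lower). The 5 were *Bbc3* (log2 fold change -1.55, SE 0.12, edgeR adjusted p = 1.43e-06), *Pmaip1* (-1.04, SE 0.16, edgeR adjusted p = 0.000843), *Zmat3* (-0.74, SE 0.08, edgeR adjusted p = 2.46e-05), *Mdm2* (-0.50, SE 0.10, edgeR adjusted p = 0.00287) and *Trp53* (-0.27, SE 0.06, edgeR adjusted p = 0.00467, and 0.0672 without *Tsc2* KO library 2). *Phlda3* and *Btg2* differed by -0.04 and -0.13 (SE 0.15 each, edgeR adjusted p = 0.881 and 0.546), which does not show that they were equal. *Zfp42*, the gene of the reporter the cells were sorted on, also differed between the sorted populations, with 591 TPM in wild-type, 430 without *Nprl2* and 868 without *Tsc2*. The part of that difference in the values of the 10 genes was not tested.

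Within each genotype the p53 targets differed between the libraries in the same direction. Library 2 was above library 1 in all 3 genotypes for 7 of 10 genes (*Mdm2*, *Cdkn1a*, *Ccng1*, *Zmat3*, *Phlda3*, *Btg2* and *Trp53inp1*), a pattern that 19.4% of all genes tested had. *Trp53* was the 1 gene with library 1 above library 2 in all 3, by 0.04 to 0.09 on the log2 scale of CPM. The gaps of *Cdkn1a* were 0.40 in wild-type, 0.66 without *Nprl2* and 0.34 without *Tsc2*, which are of the size of its difference between genotypes. *Bbc3* and *Pmaip1* did not follow, each with library 2 higher in 2 of 3 genotypes. The sum of the feeder markers went the other way. It was 162 and 115 TPM in libraries 1 and 2 of wild-type, 126 and 120.5 without *Nprl2* and 147 and 44.8 without *Tsc2*. *Col1a1* was the highest of these markers in every GFP+ library. It measured 70.7 and 52.01 TPM in wild-type and 60.28 and 15.04 without *Tsc2*, but 54.66 and 55.45 without *Nprl2*. The part of the feeder markers in the differences between libraries or genotypes was not tested.

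**Figure D4:**
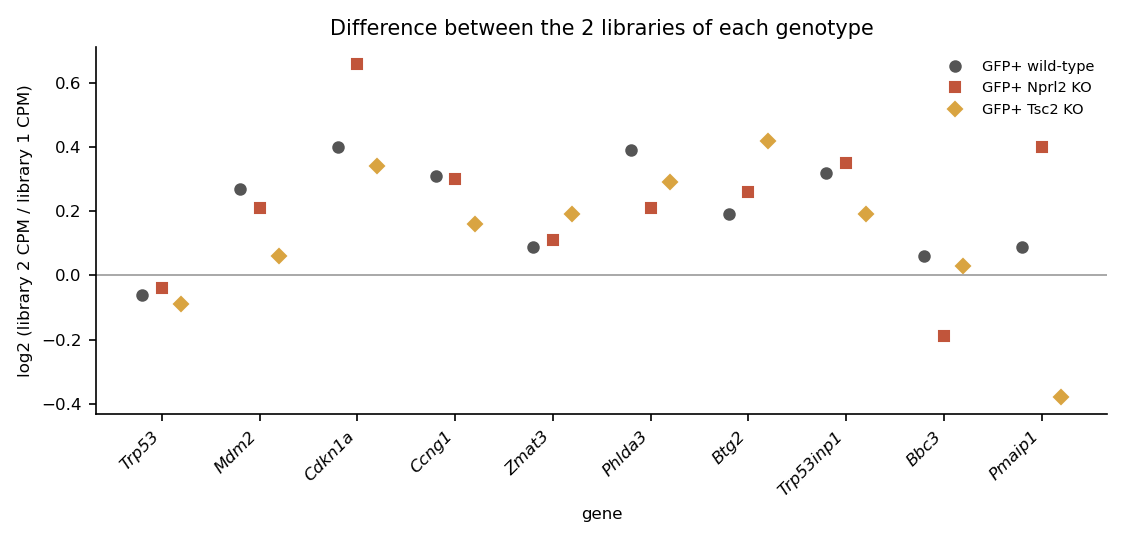
Log2 ratio of library 2 to library 1 (CPM) for each gene within wild-type, *Nprl2* KO and *Tsc2* KO, 1 point per genotype. Points of 7 genes all lie above 0, those of *Trp53* all lie below it, and those of *Bbc3* and *Pmaip1* fall on both sides.

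The libraries of day 0 were ordered in a like manner. Library 3 was the lowest of the 3 for all 9 targets and the highest for *Trp53*, and for 8 of the 9 targets library 2 was the highest. Over all genes tested, library 3 was the lowest for 39.4%, and library 2 the highest with library 3 the lowest for 24.9%. For *Btg2* the gap between them was 0.56 on the log2 scale, for *Ccng1* 0.44 and for *Cdkn1a* 0.41.

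The genes that act on p53 were read beside it. Of 19 listed regulators, 18 were tested. *Mdm4*, the partner of Mdm2 that masks the activation domain of p53, fell from 72.9 TPM at day 0 to 53.8, 44.5 and 36.9 TPM on the following days (log2 fold change from day 0 to day 3 -1.07, SE 0.07, edgeR adjusted p = 1.75e-10). *Usp7*, which deubiquitinates both Mdm2 and p53, fell by 0.71 over the same days (edgeR adjusted p = 4.34e-09). *Cdkn2a*, whose Arf product holds Mdm2 in check, rose from 38.6 to 51.4 TPM at day 1 and fell to 11.6 TPM at day 3 (-1.83 against day 0, SE 0.15, edgeR adjusted p = 3e-09). *Ppm1d*, a phosphatase that p53 induces and that dephosphorylates it, lay between 20.4 and 26.6 TPM in the means of all groups and was called in no comparison. None of these 4 passed the test in either KO against wild-type, and *Usp7* alone differed between the KOs (-0.21, edgeR adjusted p = 0.0163). Of the 18 regulators, 3 were lower and none higher in *Nprl2* KO, where 3.66% of all genes were lower and 2.78% higher. In *Tsc2* KO 6 were lower and 1 higher, where 14.2% of all genes were lower and 14.9% higher, the lowest being *Trp53bp1*, a DNA damage adaptor that binds p53 (-0.99, SE 0.08, edgeR adjusted p = 5.98e-06). *Trp53bp1* was also among the regulators that rose at day 1 (1.14, edgeR adjusted p = 8.26e-11).

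A longer list held 39 other genes known as p53 targets, of which 38 were tested. In *Nprl2* KO 9 of them were higher and 1 lower (26.3% called, against 6.43% of all genes), and the median was 0.26 on the log2 scale. *Tsc2* KO had 6 higher and 9 lower (39.5%), and *Tsc2* KO against *Nprl2* KO gave 4 higher and 20 lower (63.2%). From day 1 to day 2, 18 were higher and 8 lower (68.4%), and from day 2 to day 3, 2 were higher and 19 lower (55.3%). Day 1 against day 0 gave 10 higher and 13 lower (60.5%), and day 3 against day 0 gave 11 higher and 18 lower (76.3%). The shares called thus lay above that of all genes in the comparisons with *Nprl2* KO and from day 2 to day 3, and closer to it in the others. The list was chosen with earlier results of these libraries known, so these counts are a description. Calls for this list, and for the regulators above, were not repeated in the alternative analyses or with a library left out.

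**Figure D5:**
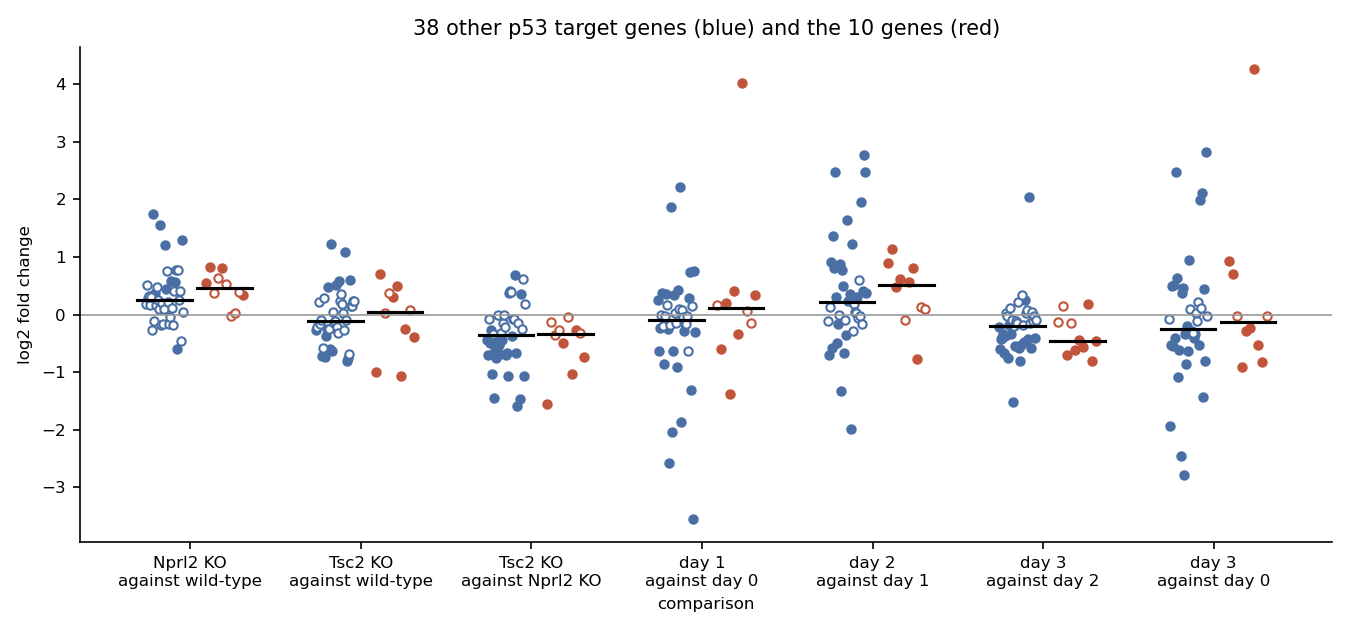
Log2 fold change of 38 other p53 target genes (blue) and of *Trp53* and its 9 targets (red) in 7 comparisons, with the median of each set as a bar. Filled points passed an adjusted p of 0.05. In *Nprl2* KO the medians are 0.26 and 0.46, and between day 2 and day 3 they are -0.20 and -0.45.

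By role, the counts are read against the shares of all genes called, which were 6.43% in *Nprl2* KO, 29.1% in *Tsc2* KO and 34.2% between the KOs, and 60.9%, 62.1% and 31.5% over the 3 steps between days. Of 9 tested genes of apoptosis, 3 were higher and 1 lower in *Nprl2* KO, none was higher and 7 were lower in *Tsc2* KO against *Nprl2* KO, and none was higher and 6 lower at day 3 against day 2. Of 16 genes of metabolism and stress, 4 were higher and none lower in *Nprl2* KO. At day 1 against day 0, 1 of them was higher and 9 were lower, where 30.1% of all genes were higher and 30.8% lower. The share called was near that of all genes in total, but not by direction. Of 6 genes of growth arrest, 4 were higher at day 1 and none lower. The total share called was again near that of all genes, with all calls in 1 direction. Of 7 DNA repair genes, 1 was higher in *Nprl2* KO, and 2 were lower in *Tsc2* KO against *Nprl2* KO. Of the other 2 genes of negative feedback, the same 1 was lower at day 2 against day 1 and at day 3 against day 2. Of 10 mitotic genes, read as a sign of proliferation, 6 were lower in *Tsc2* KO and 1 was lower in *Nprl2* KO. The comparisons given differ from role to role, and those left out also held called genes.

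Of the single genes of this list, *Ddit4*, an inhibitor of mTORC1 signalling upstream of Tsc2, was 3.34-fold higher in *Nprl2* KO (log2 fold change 1.74, SE 0.28, edgeR adjusted p = 0.03) and 5.57-fold higher at day 2 than at day 1. *Gdf15*, a secreted stress cytokine, was low in GFP+ cells and higher in both KOs. Its means were 2.13 TPM in wild-type, 6.27 without *Nprl2* and 5.14 without *Tsc2* (edgeR adjusted p = 0.0278 and 0.0279). In the time course it had 12.2 TPM at day 0 and 1.89 TPM at day 3 (log2 fold change -2.78, SE 0.27, edgeR adjusted p = 2.07e-08). *Sesn1*, a sestrin that restrains mTORC1 through GATOR2, was 2.14-fold higher in *Tsc2* KO (edgeR adjusted p = 0.000159). Other targets fell in the KOs. *Siva1* was lower in *Nprl2* KO (-0.60, edgeR adjusted p = 0.00339) and in *Tsc2* KO (-0.75, edgeR adjusted p = 0.000142). *Sfn* was lower in *Tsc2* KO (-0.80, edgeR adjusted p = 0.00163). Of the 38 targets, 9 were higher and 1 lower in *Nprl2* KO, and 6 were higher and 9 lower in *Tsc2* KO. *Trp53i11* rose from 14.2 TPM at day 1 to 85.8 TPM at day 2 (5.57-fold, edgeR adjusted p = 5.69e-12). *Plk3*, a stress kinase, and *Gadd45a*, a growth arrest and repair gene, rose 4.64-fold and 3.66-fold at day 1 and fell again at day 2, while *Ephx1*, a detoxifying hydrolase, fell at day 1 (log2 fold change -2.58, SE 0.23, edgeR adjusted p = 2.96e-08).

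The genes whose pattern was most like that of *Trp53*, *Mdm2* and *Cdkn1a* were sought among 13404 genes by the root mean square difference of group means, on the log2 CPM scale and centred within each experiment, over the 7 groups. *Epb41l2* (0.06), *Znfx1* and *Samd1* (0.07 each) were nearest to *Trp53*. For *Cdkn1a* they were *Sema4f* (0.09), *Padi2* (0.10) and *Kazn* (0.11), and for *Mdm2* *Gm20139*, *A230103J11Rik* and *Cacnb4* (0.13 each). The 10 genes themselves were left out of the search, and no other p53 target of the lists was among these 9 genes. With 38 such targets tested and 13404 genes searched, this absence is uninformative.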

How the data were processed

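The authors deposited an estimated count and a TPM value from kallisto for every RefSeq transcript in every library, neither of them normalized between libraries. The labels name kallisto 0.42.1 and mm10. Per the paper's methods, RNA of sorted GFP+ cells was made into stranded paired-end mRNA libraries, and the preparation of the time course is not given in the sources used here. Files of the authors' own DESeq2 comparisons (base mean, log2 fold change, p values) were not used. Transcripts were summed to 24296 genes through the RefSeq table of GRCm38.p6 (33713 of 34079 transcripts) and GENCODE M21 (192), and 174 were left out. Summed TPM of the 10 genes equalled the authors' deposited TPM per gene.

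Estimated counts were rounded and fitted with edgeR 4.0.16 in R 4.3.3 (TMM, filterByExpr, robust quasi-likelihood test, Benjamini-Hochberg over all genes tested, threshold 0.05), 6 GFP+ libraries (13725 genes) and 12 time-course libraries (14382 genes) each in 1 fit. The fit was tested on simulated data. Alternatives were DESeq2 1.42.0, limma 3.58.1 on log2(TPM + 1) and log2(TPM + 0.1), other normalizations and filters, a replicate block, fits of only both groups, and each library left out. Where a group then had 1 library, it was assumed to vary like the others. Libraries of a group differed by more than sampling noise. A count of 0 allows up to 3 counts, or 0.196 to 0.348 CPM, for counting error only.

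The 10 genes and all lists (p53 targets and regulators, mitotic genes, cell type markers) were chosen with earlier results of these data known. Text names the 10 genes, the targeted genes, *Mdm4*, *Ppm1d*, *Usp7* and *Cdkn2a*, the 3 called genes of the other p53 lists with the largest rise and fall per comparison (mean log2 CPM of at least 1), of which some are given, and 3 genes of nearest pattern for each of *Trp53*, *Cdkn1a* and *Mdm2*.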

Additional observations from a re-analysis of the deposited data

Results flagged for a closer look

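The effects of the KOs, each measured against the same wild-type libraries, differed by the direct test of *Tsc2* KO against *Nprl2* KO (edgeR's quasi-likelihood test, Benjamini-Hochberg adjusted) for 5 of the 10 genes, and the log2 differences were -1.55 for *Bbc3*, -1.04 for *Pmaip1*, -0.74 for *Zmat3*, -0.50 for *Mdm2* and -0.27 for *Trp53*. For *Bbc3* and *Zmat3* every *Nprl2* KO library was above and every *Tsc2* KO library below both wild-type libraries. For *Mdm2* both KOs were above wild-type, and for *Trp53* and *Pmaip1* only *Tsc2* KO stood apart from it.

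Of the other p53 genes named by rule, the KO effects differed by 0.76 for *Sirt1*, a deacetylase of p53, 0.68 for *Sesn1* and 0.41 for *Pltp*, higher in *Tsc2* KO. They differed by -1.58 for *Sfn*, the 14-3-3 sigma gene of the G2 checkpoint, -1.47 for *Tap1*, a peptide transporter, -1.45 for *Ddit4* and -0.21 for *Usp7*, lower in *Tsc2* KO. Groups of 2 or 3 libraries are too small for the test of a single library far from the rest.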

How the results depend on the processing

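With 2 libraries per genotype, calls in GFP+ cells rest on few values. Over all alternatives other than leaving out 1 library, 3 to 8 of the 10 genes were called in *Nprl2* KO. The count was 6 to 8 in *Tsc2* KO and 5 to 8 between the KOs. Among all genes tested, calls ran from 671 to 2072, 2742 to 5255 and 3317 to 5846 in the same order. Without a low-count filter, 8 of the 10 genes were called in *Nprl2* KO and 8 in *Tsc2* KO against *Nprl2* KO, in place of 4 and 5, and 1667 genes in all in *Nprl2* KO, in place of 883. A replicate block again gave 8 and 8, and 2072 genes in all. Under the block *Cdkn1a* was called in both KOs (edgeR adjusted p = 4.44e-05 without *Nprl2* and 0.00151 without *Tsc2*), and *Phlda3*, *Ccng1* and *Trp53inp1* in *Nprl2* KO (edgeR adjusted p = 4.74e-05, 0.000261 and 0.000204). Same-numbered GFP+ libraries correlated by 0.08 to 0.16 in their deviations and time-course libraries by -0.11 to 0.13. On this ground the numbers were not taken as pairs in the main fits. These correlations are over all genes and do not settle whether the numbers are pairs for the 10 genes. Library 2 was above library 1 in every genotype for 7 of these, against 19.4% of all genes tested. The calls that changed under the block depend on this choice.

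Leaving out each library in turn gave 1 to 4 of the 10 genes in *Nprl2* KO, 3 to 7 in *Tsc2* KO and 4 to 7 between the KOs. It gave 6 to 8 at day 1 against day 0, 7 at day 2 against day 1, 6 to 7 at day 3 against day 2 and 7 to 8 at day 3 against day 0. Over all genes the counts were 339 to 783, 2225 to 3974 and 2974 to 4791 for the genotypes, and 7951 to 9048, 8148 to 9189, 2969 to 5055 and 9751 to 10468 for the days.

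Signs turned only for values that were not called. *Phlda3* between the KOs (-0.04) was 0.02 by limma, *Trp53* at day 1 was -0.02 and *Mdm2* at day 2 against day 1 was 0.03 by limma. At day 3 against day 0, *Ccng1* was 0.01 with upper-quartile normalization and 0.06 or 0.07 by limma, and *Zmat3* was 0.02, and 0.06 or 0.07. Without 1 library, log2 values in *Nprl2* KO ran from -0.01 to 0.05 for *Trp53* and from -0.24 to 0.14 for *Pmaip1*, and those in *Tsc2* KO from -0.14 to 0.18 for *Ccng1* and from -0.09 to 0.23 for *Trp53inp1*. Between the KOs they ran from -0.56 to 0.11 for *Cdkn1a*, -0.18 to 0.1 for *Phlda3* and -0.34 to 0.07 for *Btg2*, and between days from -0.01 to 0.12 for *Trp53* (day 1 against 0), -0.23 to 0.05 for *Cdkn1a* (day 3 against 2) and -0.14 to 0.08 for *Ccng1* (day 3 against 0). The cause was not tested. The authors' gene symbols were tried only on their TPM table, which lists no transcripts.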
